A study of Mus musculus with 11 samples.

Results

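The expression of 9 genes known as markers of stratified squamous epithelium is described here, namely Krt4, Krt13, Krt15, Lor, Sprr1a, Sfn, Perp, Dsg3 and Ly6d. They were found by name in the table of gene counts, where 9 of 9 occurred once each among 47131 genes. The members were chosen from their squamous role with their levels and group differences in these same libraries known, so their levels and their differences between groups are given as a description, without a test. Poly(A) RNA had been sequenced from mouse colorectal organoids, epithelial cultures embedded in Matrigel and derived from the colon of C57BL/6J females that were 6 to 8 weeks old. NAP at 10 pM had been added for 48 h in 6 of the 11 libraries (N1 to N6), and 5 (C1 to C5) were controls, which the labels call untreated in one place and given phosphate-buffered saline in another. NAP is not defined in the labels, which carry 1 batch number. The titles call the libraries biological replicates but leave unsaid whether these are separate mice or cultures. The p-values below thus reflect library-to-library spread alone, possibly that between cultures rather than between mice.

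The rectum ends at the anal canal, where the single-layered columnar epithelium of the gut meets stratified squamous epithelium. In squamous tissue, basal cells carry the keratins Krt5 and Krt14 under the transcription factor p63, the cells above them switch to other keratin pairs such as Krt4 with Krt13 or Krt1 with Krt10, and the outermost cells cross-link loricrin, involucrin and small proline-rich proteins into a cornified envelope by transglutaminases. Desmosomes, built on cadherins such as desmoglein 3, hold the layers together. Columnar gut cells instead carry the simple epithelial keratins Krt8, Krt18 and Krt19.

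Lor and Sprr1a, both precursors of the cornified envelope, lie 401 kb apart in the same gene cluster on chromosome 3, and the stretches just before their start sites are printed here because their levels ran in opposite directions across the libraries (below). Sfn is shown as an abundantly expressed member from another chromosome. Of the 9 genes, 4 matched a promoter entry of RefSeq (build GRCm38.p6). Each sequence covers the 250 bases before the annotated start of transcription. Capitals mark the letters TGANTCA, the core of AP-1 sites, and TATAAA, the TATA box, each searched on both strands.
Lor promoter, chr3:92083143-92083392, minus strand: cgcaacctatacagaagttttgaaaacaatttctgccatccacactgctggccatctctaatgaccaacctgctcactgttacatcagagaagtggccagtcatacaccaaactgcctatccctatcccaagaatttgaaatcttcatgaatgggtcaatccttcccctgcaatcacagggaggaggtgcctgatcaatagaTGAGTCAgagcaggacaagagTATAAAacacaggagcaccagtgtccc
Sprr1a promoter, chr3:92485882-92486131, minus strand: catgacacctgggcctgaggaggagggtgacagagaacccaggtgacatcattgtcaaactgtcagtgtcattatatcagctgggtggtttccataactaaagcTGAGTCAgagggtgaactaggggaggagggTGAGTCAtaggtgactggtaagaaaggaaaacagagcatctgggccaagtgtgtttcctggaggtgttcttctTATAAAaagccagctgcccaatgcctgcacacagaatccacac
Sfn promoter, chr4:133602169-133602418, minus strand: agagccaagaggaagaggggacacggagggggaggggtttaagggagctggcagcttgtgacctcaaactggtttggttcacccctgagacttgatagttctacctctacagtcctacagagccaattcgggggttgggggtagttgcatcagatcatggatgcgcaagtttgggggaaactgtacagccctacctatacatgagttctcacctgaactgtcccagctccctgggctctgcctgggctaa
The Lor stretch held 1 match to TGANTCA, beginning at base -48 from the start site, and 1 to TATAAA, at base -27. The Sprr1a stretch held 2 matches to TGANTCA, at bases -146 and -116, and 1 to TATAAA, at base -43. In the Sfn stretch neither run of letters occurred. The entries of Krt13, the other gene that matched, are not printed. They held TGANTCA at bases -196, -183 and -34 and no TATAAA, and Krt13 had 22 counts over all libraries. Over 32851 promoter entries, 6.75% held TGANTCA and 12.4% held TATAAA in the same 250 bases. A match describes the letters and not binding.

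Total counts were 16546263 to 21947414 per library and genes with at least 1 count 19828 to 27218. Levels are CPM, each count relative to the library size after TMM scaling, and 3 counts in a library, the upper limit that a count of 0 allows, correspond to 0.13 to 0.215 CPM (counting error only). Controls 1 and 4 held both of the highest levels for 15.7% of 14840 tested genes and both of the lowest for 14.6%. These shares were not worked out for other pairs. Controls 2 and 5 differed from the rest as well, with 27218 and 25725 genes with at least 1 count against 19828 to 22390 elsewhere. Outside these 2 pairings, the highest Pearson r of log2 CPM with another library was 0.955 for C1 and 0.949 for C4. It was 0.941 for C2 and 0.942 for C5. Of all pairs, controls 2 and 5 had the smallest chi-square of their counts per degree of freedom, 6.85, which is above counting noise. That comparison covers counting error only and does not show separate cultures, and all 11 libraries were counted as the labels give them.

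The 9 genes did not share a level of abundance. Between genes, levels are compared as CPM per kilobase of gene length, as mean ± SD over 11 libraries. Perp stood highest, at 214 ± 61.0, followed by Sfn at 151 ± 49.4, Sprr1a at 131 ± 55.5 and Ly6d at 78.1 ± 39.6. Neighbours in this order lay within 1 or 2 SD of each other. Lor followed at 10.99 ± 22.1 and Krt4 at 3.87 ± 9.996, with SDs larger than the means. Krt15 (0.43 ± 0.244), Dsg3 (0.217 ± 0.141) and Krt13 (0.0598 ± 0.0749) came last. Per length, 97.7% of tested genes lay below Perp, 96.8% below Sfn, 66.6% below Lor, 44% below Krt4 and 5.91% below Dsg3.

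The squamous label was checked against markers that define this epithelium. Trp63, the gene of p63, had 0 counts in 7 libraries and no more than 0.215 CPM in any, with only 1 library above 3 counts. Krt5 lay between 0 and 0.539 CPM and Krt14 between 0 and 1.51 CPM. The suprabasal keratin Krt1 reached 0.658 CPM at most, and the involucrin gene Ivl 0.349 CPM. Sprr1b, Sprr3, Krt76 and Foxe1 had 0 counts in all 11 libraries. Other envelope genes were abundant, so this programme was not absent as a whole. In CPM per kilobase, Sprr2a3 stood at 1763 ± 1040, Sprr2a1 at 977 ± 615, Sprr2a2 at 471 ± 356 and Tgm3 at 48.15 ± 44.69. Reads may be shared among the near-identical Sprr2a genes. Per kilobase, the simple epithelial keratins stood at 2252 ± 687 for Krt8, 1879 ± 659.9 for Krt19 and 481 ± 89.4 for Krt18, against 0.271 ± 0.265 for Krt14. Other keratins of these lists were low but above 3 counts in 11 of 11 libraries. They were Krt10, the partner of Krt1, at 1.397 to 5.03 CPM, Krt78 at 0.768 to 4.58 CPM and Krt80 at 0.898 to 4.498 CPM. Krt14 was above 3 counts in 7. The basal markers Trp63, Krt5 and Krt14 were thus low or at 0 beside high columnar keratins, and the genes are referred to below by name rather than as a cell type. Because these are bulk libraries, fewer cells of a type and less RNA per cell cannot be told apart.

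**Figure D1:**
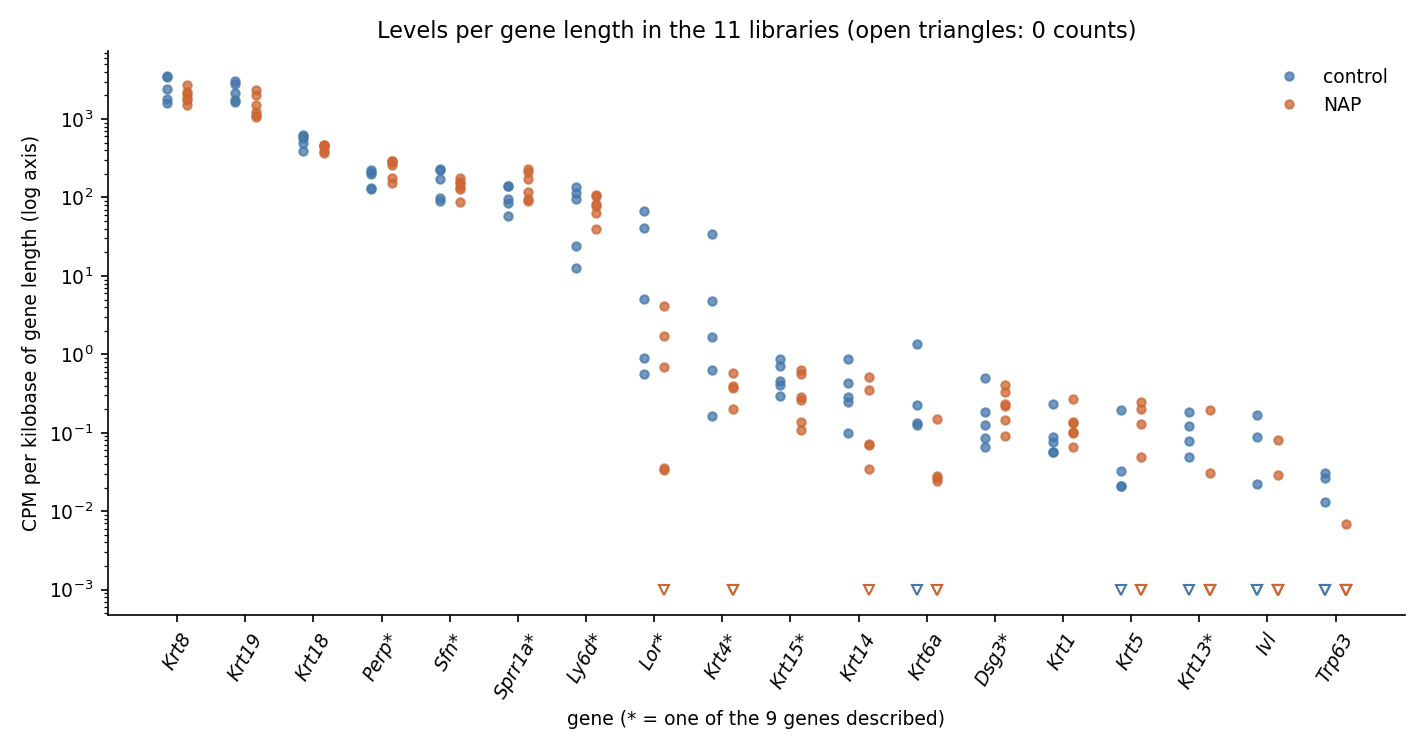
CPM per kilobase of gene length (log axis) for the 9 genes (asterisks), the defining squamous markers and the simple epithelial keratins, with 1 point per library (blue control, orange NAP) and open triangles for 0 counts, drawn at 0.001. Perp, Sfn, Sprr1a and Ly6d lie below Krt8 and Krt19 in all libraries, Lor and Krt4 spread widely, and Krt5, Krt13, Ivl and Trp63 lie at the bottom.

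Among the keratins, Krt4, the type II partner of Krt13 in lining epithelia such as the oesophagus, was carried by 1 library. It had 71.9 CPM in C1, 10.2 in C4, 3.55 in C3, 1.36 in C5 and 0.349 in C2. In the NAP libraries it had 0.838, 0, 1.25, 0.426, 0 and 0.801 CPM from N1 to N6. Controls 1 and 4 together held 91.4% of all its counts. C5, C3, C4 and C1 lay above every NAP library and C2 lay among them, so the groups overlapped. In GRCm39, the build of the count table, Krt4 (identifier 16682) spans bases 101826970 to 101833170 of chromosome 15.

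Krt13, the type I partner of Krt4, did not follow it in amount. Its counts were 3, 3, 2, 7 and 0 in C1 to C5 and 6, 0, 1, 0, 0 and 0 in N1 to N6, so only C4 and N1, at 0.321 and 0.335 CPM, exceeded 3 counts. It failed the filter on low counts and has no fitted fold change. In C1, where Krt4 reached 1560 counts, Krt13 had 3. Krt13 lies on chromosome 11 from 100008153 to 100012392.

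Krt15, a keratin of basal cells and hair follicle stem cells, was low in every library. It ranged from 0.501 to 1.51 CPM in controls (median 0.784, highest in C4) and from 0.189 to 1.08 CPM after NAP (median 0.467). It lies next to Krt13, from 100022585 to 100026775 on chromosome 11. The group ranges overlapped.

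Of the envelope genes, Lor, which encodes loricrin, the main protein of the epidermal envelope, was highest in C4 at 119.5 CPM and in C1 at 72.3 CPM. The other controls had 9.09 (C3), 1.61 (C2) and 1.002 (C5) CPM. After NAP it had 7.32, 0.0599, 3.04, 0, 0.0628 and 1.23 CPM in N1 to N6. C4 and C1 stood far above all others, N2, N4 and N5 held 1, 0 and 1 counts, and the remaining controls and NAP libraries were interleaved. In N4 the count of 0 allows up to 0.182 CPM. Lor (identifier 16939) lies on chromosome 3 from 91987578 to 91990449.

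Lor and Krt4 were high in the same 2 libraries but in different proportion: the ratio of their CPM was 1.01 in C1 and 11.7 in C4. Together they made up 22.7% of the counts of the 9 genes in C1 (95% Wilson interval 22.02 to 23.4%) and 22.2% in C4 (21.5 to 22.9%). The next highest share was 1.46% in C3 (1.31 to 1.64%), and the highest after NAP was 1.34% in N1 (1.14 to 1.58%). These intervals cover counting error only, as PCR reads without molecular identifiers are not independent molecules.

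Sprr1a, a small proline-rich envelope precursor that is also induced in injured tissue, was present throughout. It had 76.3, 111.2, 67.5, 45.3 and 111.4 CPM in C1 to C5, and 70.5, 184, 91.4, 166.7, 137 and 75.5 CPM in N1 to N6. N2, N4 and N5 lay above every control, and N1, N3 and N6 lay among them. C4, the library highest in Lor, was lowest in Sprr1a. Sprr1a lies on chromosome 3 from 92391261 to 92393188 and belongs to a family with close copies, so reads could be shared.

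Of the genes without a structural role in the envelope, Sfn encodes stratifin (14-3-3 sigma), a p53-induced adaptor that holds the cell cycle and is abundant in keratinocytes. It had 157, 375, 280.4, 143.5 and 358 CPM in C1 to C5, and 206, 245, 256, 288, 219 and 143.2 CPM in N1 to N6. C2 and C5 were the highest libraries, and N6, C4 and C1 the lowest. Every NAP library lay within the range of the controls but N6, which fell just below C4.

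Perp, a p53 target and desmosome component also found in simple epithelia, had 247, 384, 407, 245.9 and 429 CPM in C1 to C5. After NAP it had 293, 547, 338, 532, 551 and 498 CPM. N2, N4, N5 and N6 lay above every control and N1 and N3 lay among them. C1 and C4 were the lowest libraries. Perp lies on chromosome 10 from 18720819 to 18732821, and Sfn on chromosome 4 from 133327867 to 133329479.

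Dsg3, the desmoglein of stratified epithelia, ranged from 0.277 to 2.06 CPM in controls (median 0.519) and from 0.377 to 1.68 CPM after NAP (median 0.937). Its highest library was C4, with 45 counts, and its next N1, with 30. C1, which had the most Krt4, had the least Dsg3. Dsg3 lies on chromosome 18 from 20643331 to 20674367.

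Ly6d, a surface protein of the Ly6 family used as a marker of keratinocytes and of early B cells, had 8.71, 65.1, 94.4, 16.6 and 79.9 CPM in C1 to C5. In N1 to N6 it had 27.03, 56.4, 44.2, 72.7, 74.9 and 53.7 CPM. C1 and C4 were again the lowest, and the 6 NAP libraries sat between them and C3, the highest. Ly6d lies on chromosome 15 from 74633905 to 74635416.

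**Figure D2:**
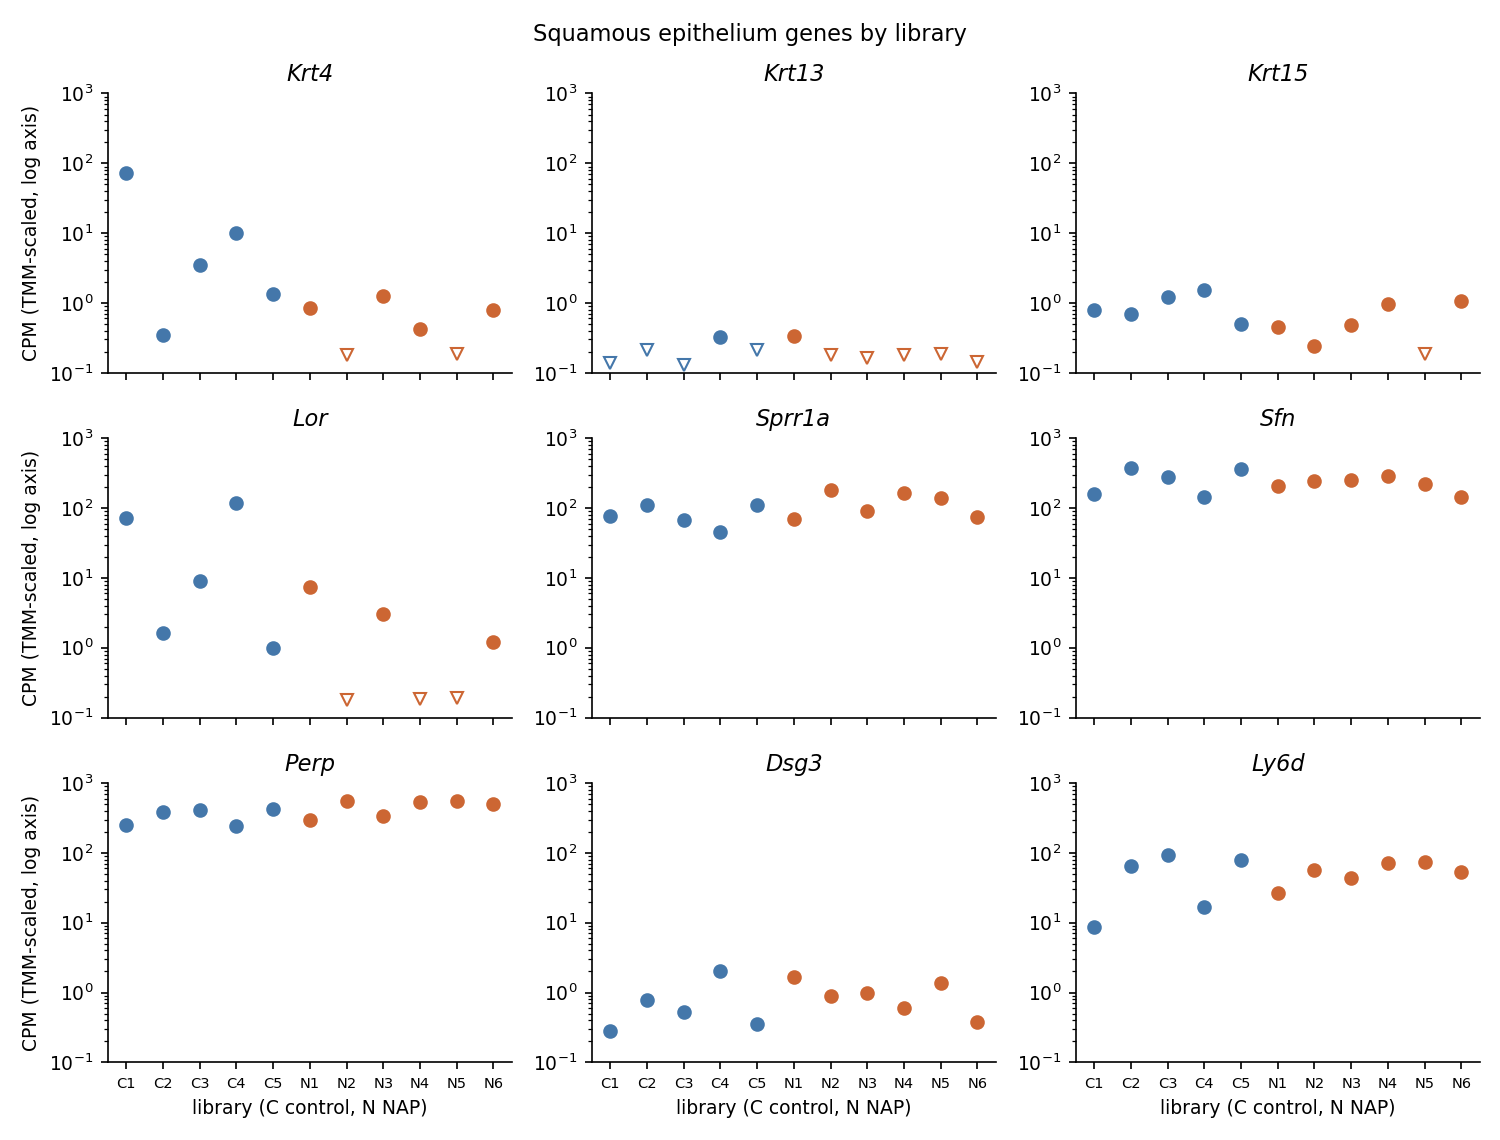
TMM-scaled CPM (log axis) of each of the 9 genes in the control libraries C1 to C5 (blue) and the NAP libraries N1 to N6 (orange), 1 point per library; open triangles mark libraries with 3 or fewer counts, drawn at the level of 3 counts. Lor and Krt4 peak in C1 and C4, at 72.3 and 119.5 CPM for Lor, while Perp and Ly6d are lowest there.

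Across the 11 libraries the genes did not move as one group. Of 36 pairs, Lor and Krt4 had a Pearson r of 0.88 on the log2 CPM scale (Spearman rho 0.81), and 0.79 over 9 libraries without C1 and C4. Lor ran against Perp (r = -0.93, rho -0.9) and against Sprr1a (r = -0.9, rho -0.89), and without C4 and C1 these were -0.85 and -0.92. Against Ly6d the r of -0.76 shrank to -0.32 without C4 and C1, so that relation rested on those 2 libraries. The 9 libraries left include N2, N4 and N5, where Lor had 1, 0 and 1 counts and Perp and Sprr1a were highest. There the logged level of Lor is set mainly by the prior count of 2. How far the r values over 9 libraries rest on N2, N4 and N5 was not tested. Perp and Ly6d had an r of 0.83, Perp and Sprr1a one of 0.78, and Lor and Dsg3 one of 0.06. These values are a description over libraries that share their scaling, and no p-value is given.

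**Figure D3:**
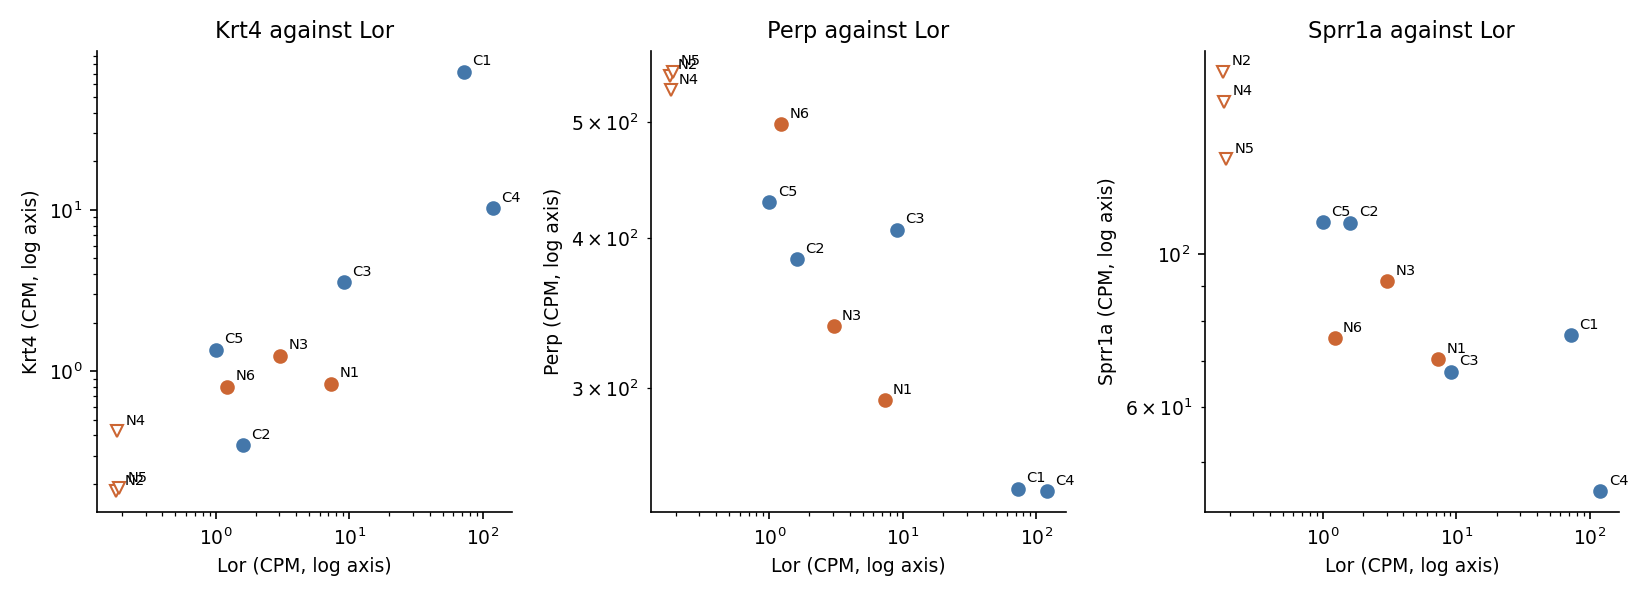
Krt4, Perp and Sprr1a against Lor, each in TMM-scaled CPM on log axes, with 1 labelled point per library (blue control, orange NAP; open triangles for libraries in which either gene had 3 or fewer counts, drawn at the level of 3 counts). Krt4 rises with Lor from N2 and N5 to C1 and C4, while Perp falls from 551 CPM in N5 to 245.9 CPM in C4.

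The genes around Lor were read in the same libraries. Within 500 kb on either side of Lor, 10 of 30 genes passed the filter, Lor included. Lor was the 1 gene of the 10 with its highest levels in C1 and C4, 4 had their lowest there (beside 14.6% of all tested genes), and the remaining 5, Sprr1a among them, had neither. The adjacent gene Prr9, of unassigned role here, had 3.55 and 2.02 CPM in those libraries and 10.2 to 86.8 CPM in the others. Sprr2a1, a small proline-rich gene, had 676 and 634 CPM there against 1680 to 6320 CPM, and Sprr2a2 and Sprr2a3 were lowest in C1 and C4 as well, although these 3 near-identical genes may share reads. Prr9 was chosen after its values were seen.

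Other markers moved with C1 and C4, and their part in the levels of Lor and Krt4 was not tested. The summed CPM of 12 absorptive colonocyte genes was 5259 in C1 and 4078 in C4 and 8368 to 24450 in the other libraries. Of these, Aqp8, a water channel of surface colonocytes, had 359 and 184 CPM in C1 and C4 and 1347 to 6953 CPM elsewhere. Lypd8, which keeps bacteria from the colonic surface, had 847 and 756 CPM there and 2303 to 7353 CPM elsewhere. Car1, a carbonic anhydrase, had 753 and 568 CPM there. Of the 12, 1 passed edgeR's test between the groups (beside 2.12% of all tested genes), higher after NAP: Ceacam1, an adhesion molecule, with 863 ± 81.7 CPM in controls and 1650 ± 259.5 CPM in the NAP libraries (adjusted p = 0.0383), named because it passed. It passed in 4 of 11 edgeR fits with a single library left out (adjusted p 0.0303 to 0.112) and not with the replicate block (0.137). By DESeq2 its adjusted p was 2.29e-06. The 9 goblet cell genes, of which 0 passed and 0 had an unadjusted p below 0.05 by edgeR, summed to 7547 CPM in C4 but to 4010 CPM in C1, within the range of the others. Stromal genes summed to 1.01 and 3.3 CPM in C1 and C4, and to 0.949 to 32.2 CPM in the others, with the highest value in N5. Immune, endothelial, muscle, nerve and melanocyte genes each summed to less than 20 CPM in every library.

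Some other squamous genes were also highest in C4, and they are named here after their values were seen. Tgm1, the transglutaminase that cross-links loricrin, had 16.2 CPM in C4, 9.13 in C1 and 6.76 in N1, with 0.122 to 3.31 CPM in the other 8. Krt6a had 3.07 CPM in C4 and 0 to 0.507 CPM elsewhere. Krt16, its partner in activated keratinocytes, had 3.34 CPM in C4, 1.34 in N1 and C1, and 0 to 0.286 CPM elsewhere. Squamous genes highest in C2 and C5 instead also occurred, and the examples were likewise named after their values were seen. Krtdap had 2.235 and 3.007 CPM in C2 and C5, 0.5185 in N6 and 0 in all others. Dmkn had 3.563 and 3.652 CPM in C2 and C5 and 0 to 1.437 CPM elsewhere. As a share, however, 6 of 45 tested squamous genes besides the 9 (13.3%) had both of their highest levels in C1 and C4. Both of their lowest were there for 7 (15.6%). Over all tested genes these shares were 15.7% and 14.6%. Krt6a, Krt16 and Krtdap failed the filter and are not part of the 45. The lists differed. Of 9 transcription factors, 4 (44.4%) had both highest levels there and 1 both lowest. Of 16 envelope genes, 1 had both highest there and 4 (25%) both lowest.

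The contrast of NAP with control organoids was then read for these transcripts. As the 9 genes were proposed with these values in view, their fold changes carry no test here. The mean of Lor was 40.7 ± 53.2 CPM for controls against 1.95 ± 2.88 for NAP (± SD, n = 5 and 6, in this order here and below), a fitted log2 fold change of -4.37 (SE 1.36). Krt4 had 17.5 ± 30.7 and 0.552 ± 0.5 CPM, at -4.95 (SE 1.25). These were the only 2 of 14840 tested genes (0.0135%) below a log2 fold change of -4. As both were chosen with these values known, nothing is read from that share. Both differences rested on controls 1 and 4. In a fit without these 2 libraries, chosen after seeing the data, the log2 fold changes were -0.99 for Lor and -1.63 for Krt4. Without C1 alone that of Krt4 was -2.79, and without C4 alone that of Lor was -3.42. In each case 0 of 6 NAP libraries lay above the control mean with all libraries in.

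The other members differed less. Perp averaged 342.5 ± 89.0 and 459.6 ± 114 CPM (log2 fold change 0.42, SE 0.23), and Sprr1a 82.3 ± 28.8 and 121 ± 48.7 CPM (0.56, SE 0.31). Sfn had 263 ± 109 and 226 ± 49.9 CPM (-0.22, SE 0.28), which became 0.25 without controls 2 and 5. Ly6d, at 52.95 ± 38.3 and 54.8 ± 17.95 CPM, had 0.05 (SE 0.51), and changed sign to -0.51 without controls 1 and 4. Krt15 stood at -0.72 (SE 0.5) and Dsg3 at 0.29 (SE 0.56). Without C4 the value for Dsg3 was 1.04, and without C1 it was 0.07. Of the 8 genes that passed the filter, 4 were positive and 4 negative with a median of -0.08, beside a median of -0.07 over all tested genes.

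Because these genes were chosen with this contrast in view, calls on them are no test of it, and the following counts stand for the record with nothing read from them. The edgeR fit over all genes called 0 of the 8 at an adjusted p of 0.05, beside 2.12% of all tested genes (1.05% higher and 1.07% lower). At an unadjusted p below 0.05 there were 2, beside 23.6%. DESeq2 called 2, beside 12.6% of the genes to which it gave an adjusted p. limma called 0 on log2(FPKM + 1) and on log2(FPKM + 0.1), beside 2.39% and 2.43%. In 9 of 9 genes the groups overlapped, where 4.71% of all tested genes had groups that did not. The summed level of the 9 genes averaged 801 ± 180.2 and 866 ± 186 CPM, with the libraries from 585 (C4) to 1061 (N4) CPM.

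The wider squamous programme, 87 further genes in 7 lists, was read from the same fit. Of these, 45 passed the filter, 20 with a positive and 25 with a negative log2 fold change and a median of -0.01. By edgeR's quasi-likelihood test 0 passed, beside 2.12% of all tested genes, with 6 higher and 4 lower at an unadjusted p below 0.05, beside 23.6%. DESeq2 called 6, beside 12.6% of the genes to which it gave an adjusted p, and limma on log2 FPKM none. The smallest adjusted p by edgeR was 0.0598.

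That gene was Dsg2, the desmoglein of simple epithelia, with 307 ± 9.05 and 483 ± 95.4 CPM (log2 fold change 0.65, SE 0.17). All 6 NAP libraries lay above all 5 controls. The groups did not overlap for 4.71% of all tested genes, so this is not read as particular to Dsg2. Its partner cadherin gene Dsc2 had 215.6 ± 31.98 and 331.5 ± 91.4 CPM (edgeR adjusted p = 0.111). Dsg2 lies in the same desmosomal cadherin cluster as Dsg3, whose groups overlapped. The desmoplakin gene Dsp had 668 ± 279 and 737 ± 143 CPM and the plakoglobin gene Jup 368 ± 37.3 and 357 ± 61.0 CPM. Of 7 tested desmosome genes 3 were positive and 4 negative.

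In the cornified envelope list 7 of 16 tested genes were positive and 9 negative (median -0.01). Sprr2a1 averaged 3049 ± 2845 and 3814 ± 1650 CPM, with C2 and C5 at 6319 and 5939 CPM. Cdsn, the corneodesmosin gene, had 2.33 ± 0.283 and 1.12 ± 0.557 CPM (edgeR adjusted p = 0.112). Its groups did not overlap, as was so for 4.71% of all tested genes. Csta1, a cystatin gene, had 2.81 ± 0.73 and 1.15 ± 0.888 CPM (edgeR adjusted p = 0.142). In the list of Ly6 family and secreted squamous genes, Ly6g6c, a relative of Ly6d, had 5.21 ± 3.06 and 23.7 ± 17.8 CPM (log2 fold change 2.19, SE 0.6, edgeR adjusted p = 0.0642). Serpinb5, the maspin gene, had 40.5 ± 13.3 and 48.6 ± 9.86 CPM, the hyaluronan receptor gene Cd44 46.7 ± 48.9 and 37.4 ± 18.85 CPM, and Fabp5, of fatty acid transport, 17.55 ± 5.09 and 17.1 ± 8.74 CPM.

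Among squamous transcription factors, 2 of 9 tested were positive and 7 negative (median -0.36). Of these 9, 4 (Grhl1, Klf5, Zfp750 and Hopx) had both of their highest levels in controls 1 and 4, and Ovol1 both of its lowest. Hopx, a homeodomain-only cofactor, had 56.4 ± 22.8 and 29.6 ± 5.53 CPM (edgeR adjusted p = 0.0671). Klf4, shared by squamous and gut epithelium, had 276 ± 26.0 and 322 ± 81.1 CPM, and Klf5 181 ± 97.9 and 181 ± 40.8 CPM. In the basal list, 4 of 5 tested were positive (median 0.11). Its tested members are hemidesmosome and surface genes that gut epithelium also expresses, such as Itgb4, with 347 ± 52.6 and 367 ± 118 CPM. Cav1, of caveolae, had 117 ± 109 and 290.3 ± 202 CPM. Lamb3, of laminin-332, had 317 ± 106 and 262 ± 57.3 CPM. Of the squamous and epidermal keratins besides the members, Krt78, Krt10 and Krt80 passed the filter, at log2 fold changes of 0.92, 0.12 and -0.27.

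**Figure D4:**
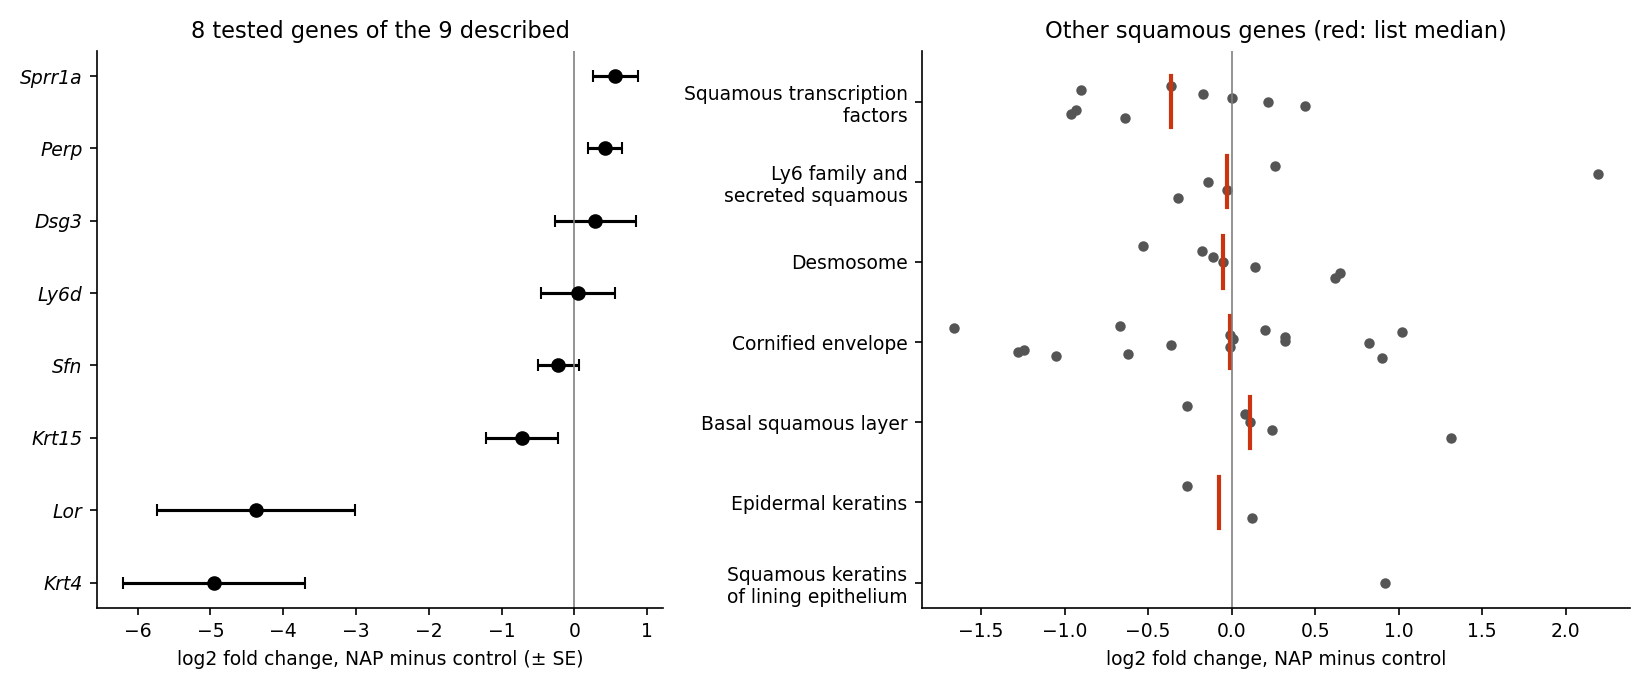
Log2 fold change, NAP minus control, from the fit over all genes: left, the 8 tested genes of the 9 with their standard errors; right, 1 point per tested gene of each further squamous list, with the list median in red. Lor (-4.37) and Krt4 (-4.95) lie far to the left with wide errors, and the medians of the other lists lie between -0.36 and 0.11, or at the single value of Krt78.

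As Sfn and Perp are also p53 targets, 20 further targets were read beside them. Of these, 13 were positive and 7 negative (median 0.15), and 3 passed by edgeR's quasi-likelihood test, beside 2.12% of all tested genes. Trp53inp1 rose from 64.0 ± 14.9 to 133 ± 46.1 CPM (adjusted p = 0.0479) and Pmaip1, the Noxa gene, from 68.8 ± 25.0 to 204 ± 108 CPM (adjusted p = 0.049). Bax, a pro-apoptotic effector, fell from 107 ± 21.3 to 55.5 ± 14.1 CPM (adjusted p = 0.0417). The most abundant, Cdkn1a, which encodes the inhibitor p21, had 551 ± 256 and 825 ± 213 CPM (adjusted p = 0.299). The 3 that passed were chosen for that, and their edgeR calls were not stable. With single libraries left out, Bax and Trp53inp1 passed in 3 of 11 fits each and Pmaip1 in 2 of 11 (adjusted p from 0.03 to 0.128 over the 3 genes), and with the replicate block their adjusted p was 0.134, 0.142 and 0.142. DESeq2, which called 12.6% of the genes to which it gave an adjusted p, gave 0.00107 for Bax, 0.00287 for Trp53inp1 and 0.00134 for Pmaip1.

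The genes whose pattern was most like each member were sought among 11072 tested genes over 11 libraries, by Pearson r of log2 CPM, as a description. Nearest to Lor were Polr1e (r = 0.984), a subunit of RNA polymerase I, Gusb (0.981), the lysosomal beta-glucuronidase, and Klhdc2 (0.976), a ubiquitin ligase adaptor. Gusb had 124 and 131 CPM in C1 and C4 and 44.2 to 95.3 CPM elsewhere, a far smaller span than that of Lor. Nearest to Krt4 were Rbm38 (0.963), Zcchc8 (0.959) and Amigo1 (0.953). Nearest to Perp were Ints6l, Ano9 and Pgrmc1 (0.987 to 0.99), and to Sprr1a Zfyve9 and Sh3tc2 (0.965 and 0.957). Sfn was most like Mif, Clic1 and Dnajc4 (0.962 to 0.968), and Ly6d most like Tmem132c, Tns2 and Camk2n1 (0.946 to 0.962). Krt15 was most like Tpsg1, Extl2 and Rfc4 (0.889 to 0.906), and Dsg3 most like Dynap, Bmp3 and Slc43a2 (0.832 to 0.902). The mean of the 8 tested members, which mixes genes of opposite course, was most like Tmsb10, Paqr7, Miip, Atg101, Urah, Zfp467, Lrmp, Tagln2, Sytl1 and Aagab (0.786 to 0.843). Of the 34 genes found by this rule 0 belonged to the squamous lists. The members themselves were left out of the search, and at most 45 of the 11072 genes compared were in those lists. A count near 0 would thus be met with any 34 genes, and nothing is read from it.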

How the data were processed

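Poly(A)-selected RNA from 11 libraries (5 control, 6 NAP, grouped and numbered by their titles) was measured. The authors deposited whole-number counts per gene and FPKM values for the same genes. The submitters' processing notes name Trimmomatic 0.39, HISAT2 2.2.1, Subread 2.0.8 (featureCounts) and GRCm39. The sources used here do not state strandedness, annotation release or how multi-mapping reads were handled, and values of antisense, overlapping or near-identical genes are uncertain for that reason.

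Counts were filtered with filterByExpr at its defaults, normalized by TMM, and the groups (NAP minus control, no covariate) compared in edgeR 4.0.16 under R 4.3.3 with its robust quasi-likelihood test, with Benjamini-Hochberg adjustment over 14840 genes and a threshold of 0.05. Standard errors are the log2 fold change over the root of the test statistic. Logged CPM had a prior count of 2. The procedure was tested on simulated counts. Alternatives were other scalings and filters, DESeq2 1.42.0, limma 3.58.1 on log2(FPKM + 1) and log2(FPKM + 0.1), a block for the replicate number, and libraries left out.

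Members and lists were chosen with earlier results of these data known. Named genes were the members, up to 3 tested genes with the highest mean and 2 with the smallest p per squamous list, up to 3 of the highest mean per context list (colonocyte, p53 and others), and for likeness the top 10 for the members' mean and top 3 per member, among genes averaging 1 or more in log2 CPM. Others are said to have been chosen after their values were seen. Some genes that meet the rule are not reported here. The fetal-like regenerative list (20 genes, 9 positive and 11 negative, 1 higher and 0 lower by edgeR, beside 2.12% of all tested genes) and the intestinal epithelium list (11 genes, 0 passing) were read as context. Promoters came from RefSeq (GRCm38.p6), and no coordinates were converted between builds.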

Additional observations from a re-analysis of the deposited data

Results flagged for a closer look

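In 20 sets of values (each of the 9 genes and their sum, in controls and in NAP libraries), 3 held a library whose distance to its nearest neighbour took more of the group's range than Dixon's 95% limit allows (0.71 for 5 libraries, lower for 6). Chance flags about 1 in 20 groups of normally distributed values. The CPM were not logged and some sets hold ties at 0, so that rate need not hold here. Krt4 in C1, at 71.9 CPM, stood 0.862 of the control range above the next control, at 10.2 CPM. Dsg3 in C4, at 2.06 CPM, stood above a next value of 0.768 CPM (0.724 of the range). Krt13 in N1, at 0.335 CPM and 6 counts, stood above 0.0542 CPM (0.838 of the range), with 4 NAP libraries at 0. Lor was not flagged among controls, since it was high in 2 of them.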

How the results depend on the processing

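Over all genes edgeR called 315, and 0 to 814 with single libraries left out (0 in 6 of 11 fits, those without control 1, 2 or 5 or NAP 2, 4 or 5). It called 41 with library totals only, 89 without a low-count filter, 1315 without controls 1 and 4 and 824 without controls 2 and 5 (both chosen after seeing the data), and DESeq2 called 1721; the cause was not tested. For the wider squamous genes the count of 0 became 6 with DESeq2, 0 to 2 with single libraries left out, 2 without controls 1 and 4 and 6 without controls 2 and 5. For the 9 genes it became 2 with DESeq2 and 2 without controls 2 and 5, Lor and Krt4 in both, and was 0 with each library left out; as the choice of these genes used this contrast, these counts are no test. The log2 fold change was negative for Lor in 21 of 21 and for Krt4 in 20 of 20 alternatives (-5.49 to -0.99 and -5.62 to -1.63), positive for Perp (0.21 to 0.64) and Sprr1a (0.35 to 0.96) in 21 of 21, positive for Dsg3 (0.06 to 1.04) and negative for Krt15 (-1.09 to -0.21) in 20 of 20, and of either sign for Ly6d (-0.51 to 0.49) and Sfn (-0.55 to 0.25). The log2 ratio of the summed levels, 0.11, was -0.17 without Perp. With the replicate block 0 genes were called over all genes, 2903 being at an unadjusted p below 0.05, and 0 among the wider squamous genes and the 9. Same-numbered libraries did not deviate together throughout (r = 0.42, 0.34, -0.07, -0.3 and 0.3 for numbers 1 to 5), and 2 of 5 controls correlated best with their own number, so the numbers were not taken as pairs. Depth limits Krt13, Krt15 and Dsg3, which had 0 to 45 counts per library.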
